A study of Cyprinodon variegatus with 4 samples.

Results

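Nuclear receptors are transcription factors that small lipid-soluble ligands switch on or off, and the iodothyronine deiodinases set how much active thyroid hormone reaches one family of them. The members described here are the 100 contigs, of 257521 in the deposited table, whose annotation began with the name of a nuclear receptor family, of a hepatocyte nuclear factor or of a COUP factor, or contained the words iodothyronine deiodinase; the symbol NR1D1 was left out. They carried 42 gene names. The wording of the annotations took in more than receptors: 47 contigs of 21 gene names were receptors, 4 contigs of 2 gene names were deiodinases, 24 contigs were coactivators or corepressors that bind receptors, 6 were hepatocyte nuclear factors of other families, and 19 were proteins whose names merely begin alike. All 47 receptor contigs, and 0 of the others, also carried the table's Gene Ontology term for steroid hormone receptor activity, which the choice of members did not use.

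The RNA came from whole bodies of larvae of the sheepshead minnow (Cyprinodon variegatus), an estuarine fish of toxicity testing. There was 1 library for each of 4 groups: Control, with no treatment; Surfactant control, given Tween 80 (a detergent that keeps fibres in suspension) at 0.001%; and 2 groups that received polyethylene terephthalate (PET) microfibres, here PET 10 (10 mg/L) and PET 100 (100 mg/L). All were 10-day samples, and the labels give 72 hpf (hours after fertilization) as the stage of the larvae that were exposed. The labels do not say for each PET library whether Tween 80 was present, nor how many larvae a library pools. With 1 library per group there is no replicate error, so every difference below compares libraries and has no test.

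A nuclear receptor binds DNA next to its target genes, often as a pair with a retinoid X receptor (RXR), and recruits corepressors without ligand and coactivators with it. In fish larvae, thyroid hormone and its receptors drive the passage from larva to juvenile, retinoic acid receptors pattern the body axis and fins, and HNF4A, NR5A2 and NR0B2 govern bile acid, lipid and sugar metabolism in liver and gut. Type II deiodinase makes active hormone from thyroxine, and type III deiodinase destroys it.

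Values are FPKM (fragments per kilobase of contig, scaled to the mapped total), on which levels of different genes can be set side by side. Wherever 4 values stand in a row they follow the sequence Control, Surfactant control, PET 10, PET 100. A contig entered a comparison if its mean over the 4 libraries was at least 1 FPKM, which 45298 contigs and 50 of the 100 members passed: 23 of 47 receptor contigs, 3 of 4 deiodinase contigs, 14 of 24 coregulator contigs, 2 of 6 other hepatocyte nuclear factor contigs and 8 of 19 of the remaining proteins. A difference was counted at 2-fold or more in FPKM + 0.5, an offset that shrinks the ratios of low contigs. FPKM summed to between 1039707 and 1080208 in the 4 libraries, and absolute depth is unknown. Markers of liver, gut, muscle and retina were present in every library, with summed levels of 451 to 590 FPKM for 6 hepatocyte gene names, 318 to 375 for 5 enterocyte gene names, 10378 to 12265 for 6 skeletal muscle gene names (1 name at 0 in each library) and 285 to 325 for 5 photoreceptor gene names. In RNA of whole larvae, fewer cells of a type and less RNA per cell cannot be told apart.

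Of the receptors, the clock repressor NR1D2 was the most abundant, and 11 of the 21 receptor gene names reached a mean of 3 FPKM when all contigs of a name were added. Summed, NR1D2 (mean 65.7 FPKM) stood apart from RORB (38.3) and NR5A2 (36.5), whose ranges over the 4 libraries overlapped, and these stood above RXRBA (25.7), DIO3 (22.6), HNF4A (16.8) and THRB (9.16). NR0B2 (6.35), RARGA (6.27), NR2F6 (5.95), NR2C2 (3.60) and RORA (3.12) formed a tail in which each range overlapped the next. Contigs of 1 gene name can be splice forms or pieces of 1 transcript, and pieces are counted more than once in a sum. By the most abundant contig alone (the main contig), RXRBA (22.6), NR5A2 (21.5), DIO3 (19.7), HNF4A (16.8) and RORB (13.9) followed NR1D2, each range overlapping that of its neighbour, so the order within this middle group depends on how contigs are added.

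**Figure D1:**
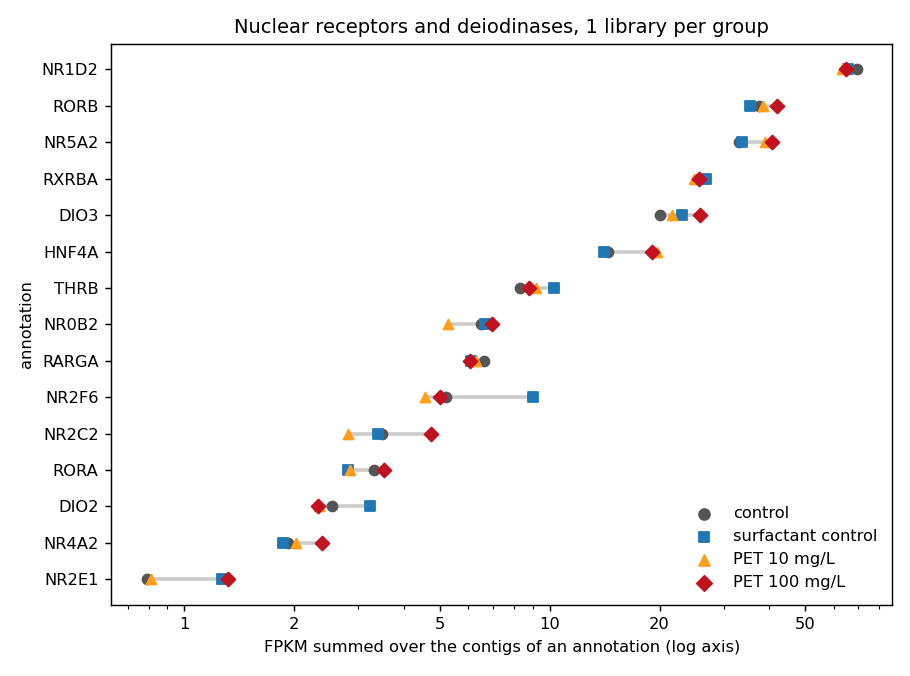
FPKM summed over the contigs of each receptor or deiodinase gene name with a mean of at least 1 FPKM, on a log axis, with 1 point per library and a grey line from the lowest to the highest library. NR1D2 lies highest at 63.2 to 69.4 FPKM, most names span under 1.5-fold, and NR2F6 has its surfactant control point at 8.99 FPKM away from the other libraries.

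Levels of the members spanned the libraries about as much as those of all genes. Among 25 member gene names with a summed mean of at least 3 FPKM, the highest library was a median of 1.23 times the lowest, beside 1.215 for all 4904 gene names at that level, and 3 (12%) reached 1.5 times, beside 14.8% of all. The receptors among these were NR2F6 at 1.98 times and NR2C2 at 1.68. HNF1BA, a regulator of kidney, liver and gut development, had the most even sum, at 6.33, 6.19, 6.40 and 6.36 FPKM. Its main contig was less even, at 4.81, 4.19, 5.28 and 4.84 FPKM.

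Of the enzymes that set thyroid hormone levels in tissues, the inactivating one was far more abundant than the activating one. Type III deiodinase (DIO3) was at 17.92, 19.71, 17.93 and 23.20 FPKM in its main contig. PET 100 was thus highest and the other 3 lay close together; its log2 ratio was 0.23 to the surfactant control and 0.36 to the control. After libraries were scaled by the median of ratios these ratios were 0.09 and 0.20. A second DIO3 contig, whose name shares no stem with the first, was at 2.11, 3.31, 2.49 and 2.63 FPKM, with the surfactant control highest, and the last was listed at 0 except for 1.25 FPKM in PET 10. Whether they are separate genes was not tested.

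Type II deiodinase (DIO2), the activating enzyme, had 1 contig, at 2.54, 3.22, 2.34 and 2.32 FPKM. Both PET libraries lay below both libraries without fibres, at log2 ratios of -0.39 and -0.40 to the surfactant control but of -0.10 and -0.11 to the control. Scaled by the median of ratios, they were -0.42 and -0.52, and -0.15 and -0.25. In the surfactant control DIO2 was also above the control, at a log2 ratio of 0.29.

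THRB, a receptor through which the hormone acts, was nearly level over the libraries in its main contig, at 6.36, 6.03, 6.72 and 6.36 FPKM. Its other contigs, from the same contig stem, were highest in the surfactant control. One was at 0.98, 2.49, 1.77 and 1.64 FPKM, past 2-fold between surfactant control and control with a log2 ratio of 1.01, and the other at 0.98, 1.79, 0.69 and 0.81. The sum of the 3 was 8.32, 10.31, 9.18 and 8.81 FPKM, so its surfactant control peak came from the minor forms.

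**Figure D2:**
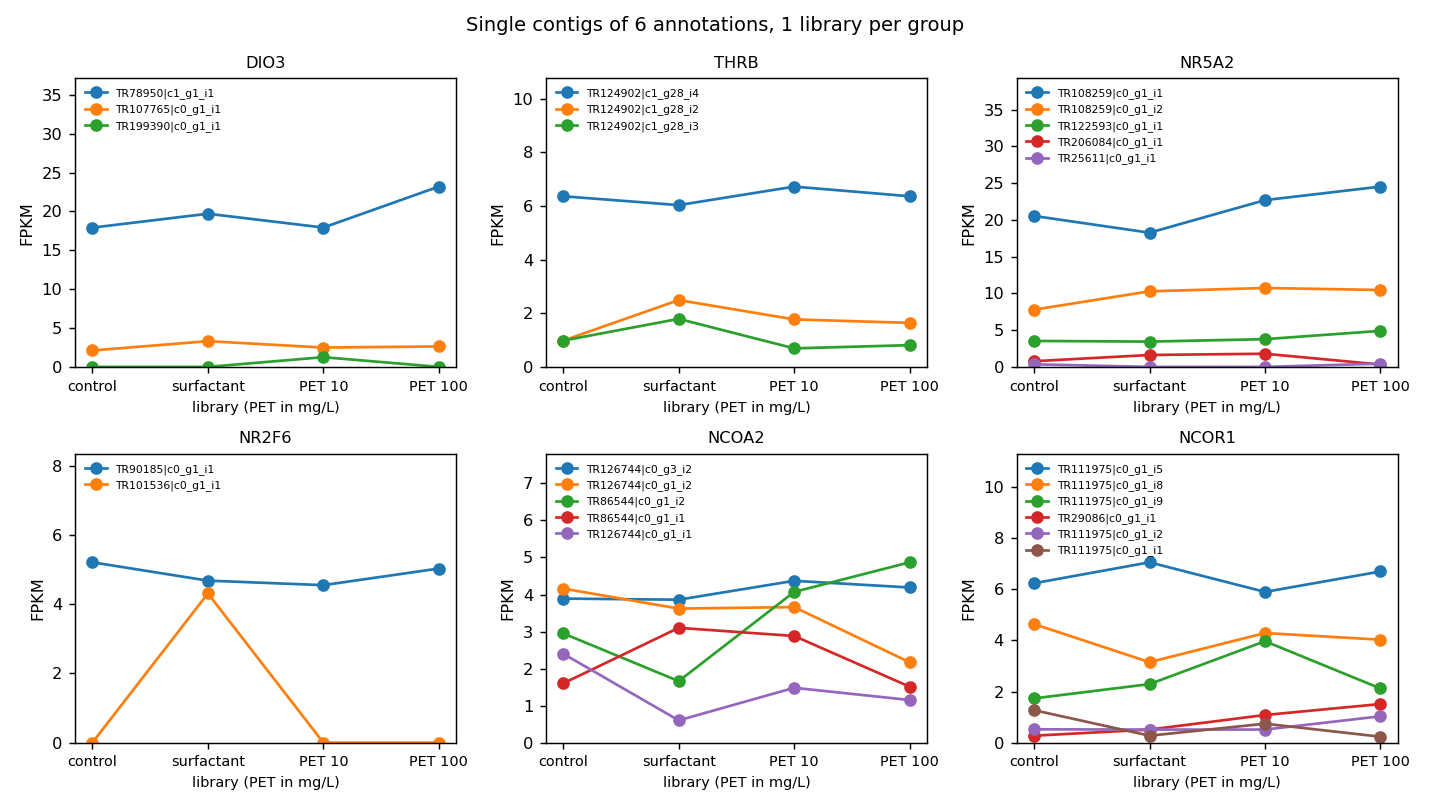
FPKM of every contig of 6 gene names (vertical axis, starting at 0) in the 4 libraries (horizontal axis; lines only join the points of 1 contig). The main contigs of THRB and NR2F6 are nearly level while their minor contigs peak in the surfactant control, and the contigs of NCOA2 go different ways.

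Around these, 12 of 31 listed genes of thyroid hormone synthesis, transport and response were matched in the table, with 6 contigs past the filter. Thyroglobulin (TG), the hormone precursor, was at 11.06, 8.80, 10.63 and 9.03 FPKM. It was therefore higher in the control and in PET 10 than in the surfactant control and in PET 100. Summed thyroid follicle markers (5 of 7 matched, none at 0) were at 116, 93.1, 133 and 90.4, with the same libraries high. The main DIO3 contig had the opposite order, with its higher values in the surfactant control and PET 100, and the part of the follicle markers in it was not tested. CRYM, which binds thyroid hormone in the cytosol, was at 21.79, 20.39, 23.65 and 24.58 FPKM. At the pituitary and brain end of the axis, the thyrotropin-releasing hormone precursor TRHA was at 2.66, 2.62, 2.36 and 2.53 FPKM. The thyrotrope markers (2 of 3 matched) had no contig past the filter and summed to between 0.40 and 1.72. At both PET concentrations 0 of the 6 contigs were past 2-fold from the surfactant control, where 15.5% of all contigs were in PET 10 and 15.9% in PET 100. In this and the other pathway lists most contigs past the filter averaged 3 FPKM or more. At that level the shares of all contigs were lower, at 5.12% and 6.01%. The list's median log2 ratio was 0.23 in PET 10 and -0.04 in PET 100, beside 0.02 and 0.10 for all contigs. The first median was -0.022 with no filter and 0.1092 when contigs were summed per gene name. The second was -0.1635 after median-of-ratios scaling.

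The main contigs of the retinoid receptors RXRBA and RARGA spanned at most 1.08 times from the lowest library to the highest. RXRBA, the retinoid X receptor that pairs with many of the others, was at 22.65, 23.73, 22.20 and 21.95 FPKM, and its minor form at 3.02, 3, 2.58 and 3.67. RARGA, a retinoic acid receptor of skin, fins and skeleton, was at 6.43, 6.08, 6.29 and 6.07 FPKM in its main contig. RXRG was at 0.35 to 0.55 FPKM, and RARGB was listed at 0 in the control and in PET 10 and at 0.79 in the surfactant control, all below the filter.

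Genes that make, store and carry retinoids (19 of 35 matched) had 16 contigs past the filter. Of these, 0 were past 2-fold from the surfactant control at either PET concentration, beside 15.5% of all contigs in PET 10 and 15.9% in PET 100. However, 14 of the 16 averaged 3 FPKM or more, where the shares of all contigs were 5.12% and 6.01%. RBP4A, the blood carrier of vitamin A made by the liver, was at 386.05, 469.90, 486.06 and 566.74 FPKM, highest in PET 100 and lowest in the control. RDH12, a retinal reductase, was at 18.13, 19.10, 26.29 and 24.62 FPKM, higher in both PET libraries. RETSAT, which saturates retinol, was lowest in PET 100, at 3.47, 3.62, 2.99 and 2.04 FPKM. RDH13 was at 4.06, 2.57, 3.89 and 3.46 in its main contig but summed to 4.13, 3.48, 6.04 and 4.11, highest in PET 10. RPE65A, the isomerase of the retinal pigment epithelium and also a member by its annotation, was at 66.14, 81.82, 71.56 and 73.24 FPKM. The median log2 ratio of the list was -0.07 in PET 10 and 0.02 in PET 100, and 0.15 in the surfactant control against the control, where all contigs had 0.00.

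The liver and gut receptors HNF4A and NR5A2 were higher in both PET libraries than in both libraries without fibres. HNF4A, a master regulator of hepatocytes and enterocytes, was at 14.49, 14.14, 19.67 and 19.06 FPKM. The PET libraries lay close to each other and apart from the other pair, with log2 ratios of 0.46 and 0.42 to the surfactant control and of 0.43 and 0.38 to the control. HNF4A had 1 contig. Scaled by the median of ratios, its ratios were 0.42 and 0.28 to the surfactant control and 0.36 and 0.22 to the control.

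NR5A2 (liver receptor homologue 1, which controls bile acid and pancreatic enzyme genes) had 5 contigs. Its main contig was at 20.53, 18.25, 22.68 and 24.52 FPKM, at log2 ratios of 0.31 and 0.42 to the surfactant control but of 0.14 and 0.25 to the control. The same scaling made them 0.27 and 0.28, and 0.08 and 0.09. The second, from the same stem, was at 7.78, 10.28, 10.73 and 10.46 FPKM, so that it was the control that stood low. Their sum with the 3 minor contigs was 32.96, 33.59, 38.97 and 40.64. A minor contig at 0.77, 1.62, 1.79 and 0.32 FPKM was past 2-fold lower in PET 100 than in the surfactant control and in PET 10.

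NR0B2 (small heterodimer partner) lacks a DNA-binding domain and represses HNF4A and NR5A2 in the bile acid loop of mammals. It was at 6.50, 6.66, 5.28 and 6.94 FPKM, lowest in PET 10, an order unlike that of its partners. FOXA2 was listed at 0 in the surfactant control and at 0.10 to 0.45 FPKM elsewhere.

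Markers of the cells in which these receptors work differed between the libraries as well. Summed hepatocyte markers (6 of 10 matched, none at 0) were at 451, 555, 551 and 590 FPKM, so that the surfactant control was already near the PET libraries. The largest part was AHSG, at 239.17, 284.47, 312.21 and 298.08 FPKM, and the single markers differed. AHSG and APOA1 (10.53, 13.48, 19.43 and 18.55 when summed) were highest in PET 10. FGG and TF were highest in PET 100, and FABP1 and SERPINA1 (72.27, 95.13, 65.25 and 82.72) in the surfactant control. Enterocyte markers (5 of 7 matched, none at 0) were at 318, 342, 375 and 360 in sum, highest in PET 10 as HNF4A was, but with the surfactant control above the control. Of these, APOA4, FABP2 and SLC15A1 were highest in PET 10, whereas CDHR5 and ANPEP were highest in PET 100. The part of the hepatocyte and enterocyte markers in the values of HNF4A and NR5A2 was not tested.

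**Figure D3:**
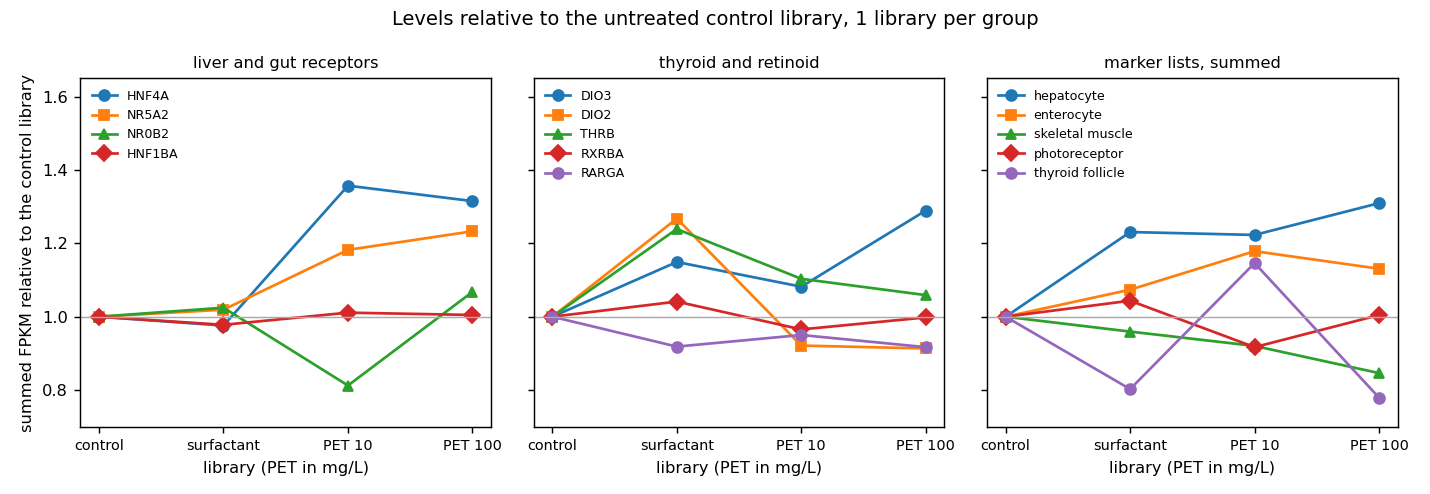
Summed FPKM of liver and gut regulators, thyroid and retinoid genes, and marker lists, each divided by its value in the untreated control library (vertical axis; lines join the 4 libraries of 1 item). HNF4A and NR5A2 sit above 1 in both PET libraries and near 1 in the surfactant control. The sum of the hepatocyte markers, of which AHSG is the largest part, is already higher in the surfactant control.

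Genes that LXR, FXR and HNF4 receptors control (13 of 29 matched, 15 contigs past the filter) had mixed orders. The ileal bile acid carrier SLC10A2 was at 3.40, 6.17, 2.54 and 1.74 FPKM, past 2-fold lower in both PET libraries than in the surfactant control but not than in the control. The main contig of PCK1, the entry enzyme of sugar synthesis, was at 3.03, 1.33 and 5.2 FPKM and listed at 0 in PET 100. Its 3 contigs summed to 3.48, 1.90, 6.31 and 0.60, so both ways the 2 PET libraries lay on opposite sides of the surfactant control. The lipoprotein assembly protein MTTP (13.82, 14.19, 16.04 and 16.96 FPKM) and the cholesterol exporter ABCA1 (14.68, 12.94, 15.57 and 15.29) were highest in the PET libraries by small steps. In this list 1 contig was 2-fold higher and 2 lower in PET 10, and 0 higher and 2 lower in PET 100, against the surfactant control. Of all contigs, 15.5% in PET 10 and 15.9% in PET 100 were past 2-fold either way. The medians of the list were 0.05 and 0.06, beside 0.02 and 0.10 for all contigs.

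The contigs named as PPAR receptors, which switch on fatty acid use, were below the filter. Only 24404 of the 257521 contigs carry a gene name, so receptor transcripts without one would be missed here. PPARA was listed at 0 in the control and in PET 100 and at 0.83 and 0.77 FPKM in the surfactant control and in PET 10, and PPARG at 0 except for 0.76 in the surfactant control. Their coactivator PPARGC1A, which raises mitochondrial gene expression, passed the filter, at 4.2, 3.91, 4 and 5.09 FPKM in its main contig. The xenobiotic receptor NR1I2 was listed at 0 in the surfactant control and PET 100, with 1.13 FPKM in the control and 1.47 in PET 10, below the filter.

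PPAR target genes of fatty acid use (18 of 32 matched) had 16 contigs past the filter. The mitochondrial carnitine transferase CPT2 was at 2.23, 1.54, 4.90 and 3.81 FPKM, past 2-fold higher in both PET libraries than in the surfactant control. CPT1B, the muscle enzyme of the preceding step, had a main contig at 1.56, 0.33 and 2.91 FPKM in the control, the surfactant control and PET 100. That contig was listed at 0 in PET 10, and the sum of its contigs was 2.40, 0.33, 0.50 and 2.91. The desaturase FADS2 was at 164.16, 168.88, 200.07 and 196.73 FPKM and PDK2, a brake on sugar oxidation, at 168.56, 136.73, 143.54 and 170.55. FABP3, a fatty acid carrier of muscle, stayed between 309.54 and 330.21. Counted over the list, 2 contigs in PET 10 and 3 in PET 100 were 2-fold higher than in the surfactant control and 0 were lower, beside 8.51% and 9.19% of all contigs higher, with medians of 0.00 and 0.06. Against the control, 1 contig was higher and 1 lower in PET 10, and 0 either way in PET 100, and 1 was higher and 2 lower in the surfactant control itself.

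Receptors of the clock and the nervous system included the most abundant ones. NR1D2, a repressor in the loop of the circadian clock, was at 69.40, 65.54, 63.24 and 64.75 FPKM, both PET libraries a little below the others. RORB, a receptor of retina, brain and clock, was at 13.62, 13.47, 13.21 and 15.41 FPKM in its main contig and at 12.62, 11.51, 11.56 and 14.66 at the next. In both, PET 100 was highest. Further RORB contigs, at 7.08, 6.24, 8.48 and 6.76 FPKM and at 3.78, 4.16, 5.21 and 5.07, were highest in PET 10. RORA, a related receptor of cerebellum and clock, was at 1.88, 1.64, 1.92 and 1.72 by its main contig. NR4A2, which dopamine neurons need, had a main contig at 1.15, 0.90, 1.29 and 1.67 FPKM, and NR2E1, of neural stem cells and retina, at 0.79, 1.27, 0.81 and 1.32. NR0B1, a regulator of adrenal and gonad development, was at 0.68, 0.74, 1.11 and 1.11 FPKM, under the filter. Photoreceptor markers (5 of 8 matched, none at 0) summed to 311, 325, 285 and 312 FPKM; their part in the RORB values was not tested.

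Of the receptors with a summed mean of at least 3 FPKM, the widest span was that of NR2F6, a COUP-type repressor. Its main contig was level, at 5.21, 4.68, 4.55 and 5.03 FPKM. A second contig, from another stem and matched to another protein entry, was at 4.31 FPKM in the surfactant control and listed at 0 in the other 3 libraries, which alone made the sum of 8.99. NR2C2, a testicular orphan receptor, had 7 contigs of 1 stem, of which only the main one passed the filter, at 1.98, 2.39, 1.36 and 2.97 FPKM. The COUP factors NR2F2 and NR2F1A were at 0.09 to 0.22 and 0.39 to 0.48 FPKM.

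Among the coregulators, single contigs of NCOA2 and NCOR1 differed more than the sums of these gene names. NCOA6 was at 15.34, 14.69, 16.43 and 16.77 FPKM, and NRIP1, a hormone-dependent repressor, at 5.22, 4.69, 5.25 and 5.77. NCOR1, the corepressor of unliganded thyroid and retinoic acid receptors, summed to 14.67, 13.79, 16.49 and 15.62 FPKM over 6 contigs, while one of them was past 2-fold higher in PET 10 than in the control (1.73 and 3.97).

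NCOA2, a p160 coactivator, summed to 15, 12.84, 16.46 and 13.89. One NCOA2 contig was at 2.95, 1.66, 4.07 and 4.87 FPKM, past 2-fold higher in both PET libraries than in the surfactant control, and another of its stem, at 1.6, 3.1, 2.88 and 1.51, was highest in the surfactant control. A contig of another NCOA2 stem, at 2.40 and 0.60 FPKM in the control and the surfactant control, was past 2-fold between these. NCOA5 was listed at 0 in the control and in PET 10, and was at 2.50 FPKM in the surfactant control and 3.29 in PET 100. NCOA7 was at 3.05, 4.60, 4.56 and 4.45.

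The wider list of receptor coregulators (18 of 33 matched) had 29 contigs past the filter, 15 of them members. Against the surfactant control 1 contig was 2-fold higher and 1 lower in PET 10, and 1 and 0 in PET 100. Of all contigs, 15.5% and 15.9% were past 2-fold either way. Of the 29, 23 averaged 3 FPKM or more, where these shares were 5.12% and 6.01%. PRMT1, an arginine methyltransferase, was the most abundant gene of the list, at 51.93, 46.61, 42.06 and 48.02 FPKM. TBL1XR1, a subunit of the NCOR complexes, was lowest in PET 100 at its main contig, at 9.51, 9.21, 9.70 and 5.89, but its sum was 16.77, 18.43, 18.92 and 17.44. The corepressor LCORL was at 4.17, 1.76, 0.87 and 3.18 FPKM, lower in the surfactant control and in PET 10 than in the other libraries.

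Of the proteins that only share the wording, NRBP2, a kinase-like protein, was at 14.77, 13.82, 15.62 and 17.18 FPKM in its main contig, and the carboxypeptidase SCPEP1 at 17.49, 19.01, 19.05 and 16.50. RARRES3 was at 5.03, 5.73, 6.52 and 6.21 and NRIP3 at 2.19, 1.76, 1.94 and 2.15. NR2C2AP was at 1.39, 2.41, 2.41 and 2.19. No contig of these was past 2-fold in any of the 6 comparisons among those past the filter.

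No steroid or vitamin D receptor was among the members, so only listed genes of hormone synthesis, breakdown and response are described. No annotation in the table used here began with estrogen, androgen, glucocorticoid, mineralocorticoid, vitamin D3 or oxysterols receptor (0 contigs each), and these receptors are not analysed here. Of the glucocorticoid and mineralocorticoid list (22 of 34 matched, 28 contigs past the filter), FKBP5, the chaperone that glucocorticoids induce in mammals, was lower in both PET libraries, at 84.48, 90.72, 74.91 and 76.61 FPKM. Its chaperone partner HSP90AB1 was at 985.30, 991.52, 917.41 and 955.28, and GLUL, glutamine synthetase, at 86.45, 86.64, 88.53 and 91.27. DUSP1, a stress-induced phosphatase, was highest in the control, at 13.39, 8.18, 10.23 and 10.37. In PET 10, 1 contig of that list was 2-fold higher than in the surfactant control and 0 lower, and in PET 100 the counts were 1 and 2. Of all contigs, 15.5% and 15.9% were past 2-fold either way. Of the 28, 24 averaged 3 FPKM or more, where these shares were 5.12% and 6.01%. The medians of the list were 0.03 and 0.15, beside 0.02 and 0.10 for all contigs.

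Genes listed for sex steroid synthesis and response (14 of 28 matched) had 7 contigs past the filter. Of these, 0 were past 2-fold from the surfactant control at either PET concentration, beside 15.5% and 15.9% of all contigs. The medians were 0.20 and 0.19, beside 0.02 and 0.10 for all contigs. The first median was 0.00 with no filter, and the second 0.05 after median-of-ratios scaling. The response genes VTG1, GREB1, ZP2, ZP3 and ZP4 had no contig past the filter, and neither had the aromatase CYP19A1. The filtered medians thus hold only the enzymes HSD17B12A, HSD17B12B, HSD17B7, HSD17B8, AKR1D1 and SRD5A2. The steroid dehydrogenase HSD17B7, which also acts in cholesterol synthesis, was at 14.17, 15.23, 18.02 and 17.71 FPKM. HSD17B12A was at 43.49, 45.79, 39.91 and 40.04 and its paralogue HSD17B12B at 27.60, 28.48, 31.24 and 34.16, the former lower and the latter higher in both PET libraries than in both libraries without fibres. In the vitamin D list (6 of 14 matched, 6 contigs past the filter) 0 contigs were past 2-fold, beside 15.5% and 15.9% of all contigs. The medians of the list were 0.13 in PET 10 and 0.33 in PET 100. The former was -0.0726 with no filter and -0.0314 at a filter of 3 FPKM. The latter was 0.21 after median-of-ratios scaling and 0.0999 with no filter. CYP24A1, which breaks down vitamin D, had a main contig at 17.29, 9.92, 12.22 and 20.27 FPKM, lowest in the surfactant control. Its log2 ratio in PET 100 was 1.00 to the surfactant control, just under the limit, but 0.22 to the control, and 0.56 to the surfactant control when its 3 contigs were added.

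**Figure D4:**
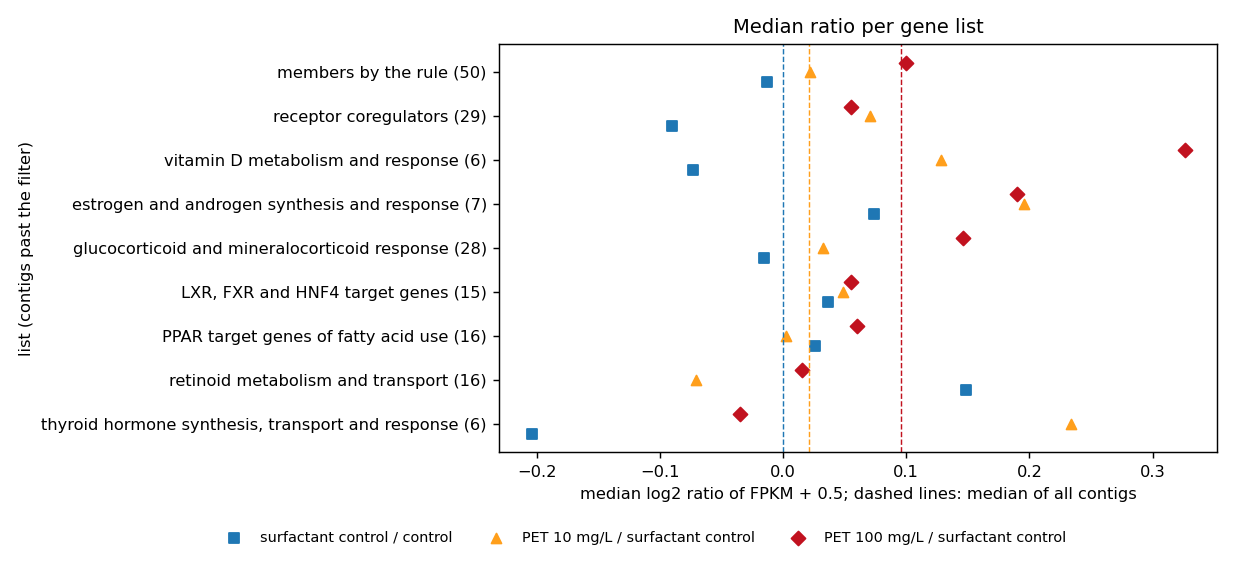
Median log2 ratio of FPKM + 0.5 (horizontal axis) over the contigs past the filter of each gene list and of the members, for the surfactant control against the control and each PET library against the surfactant control; dashed lines give the median of all contigs. The members lie on the dashed lines, at -0.01, 0.02 and 0.10, and the vitamin D list lies farthest right in PET 100, at 0.33 over 6 contigs (0.21 after median-of-ratios scaling).

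Over the 50 members past the filter, counts at 2-fold were small in each of the 6 comparisons. Between the surfactant control and the control, 3 were higher and 1 lower (8%), beside 14.5% of all contigs, 7.86% higher and 6.61% lower. For PET 10 against the surfactant control, 2 were higher and 2 lower (8%), beside 15.5% of all, 8.51% higher and 6.96% lower. PET 100 against the same library gave 1 higher and 2 lower (6%), beside 15.9%, with 9.19% higher and 6.69% lower. These members included single contigs of NR2F6, NCOA5, NCOA2, THRB and NR5A2, described above with their values. Against the control, 1 was higher and 0 lower in PET 10 (2%), beside 15%, with 9.02% higher and 6.0% lower. PET 100 against the control gave 1 higher and 0 lower (2%), beside 15.3%, with 9.49% higher and 5.81% lower. Between the PET libraries, 1 was higher and 1 lower in PET 100 (4%), beside 15.4%, with 8.08% higher and 7.32% lower. Calls were mostly of low contigs. Among those averaging 3 FPKM or more, of which 31 are members, 4.78% of all were past 2-fold between the surfactant control and the control, 5.12% and 6.01% for PET 10 and PET 100 against the surfactant control, 5.14% and 5.59% against the control, and 5.01% between the PET libraries. At that level 1 member was past 2-fold in each PET library against the surfactant control, the NCOA2 contig described above, and 0 in the other comparisons. The comparisons share libraries and are not independent. The gene names given for these calls (NCOA2, NCOA5, NCOR1, NR2F6, NR5A2 and THRB) lay outside the naming rule at the contigs concerned and were named after their values were seen.

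**Figure D5:**
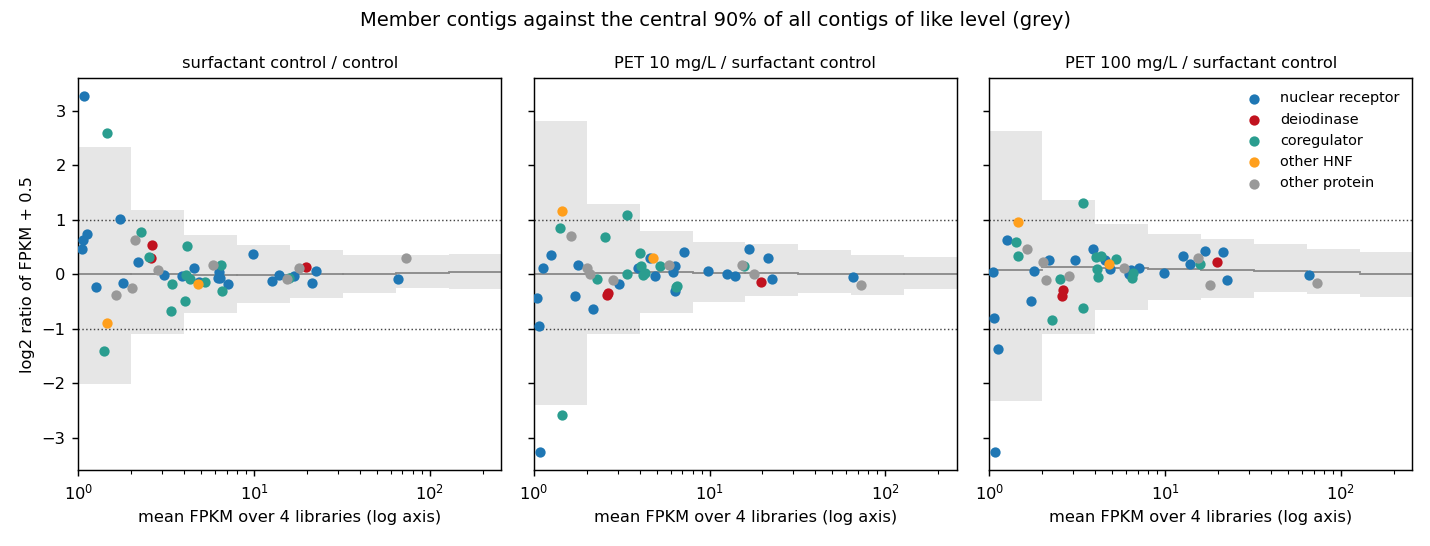
Log2 ratio of FPKM + 0.5 (vertical axis) of the 50 member contigs past the filter against their mean FPKM (log axis) in 3 comparisons, coloured by class; the grey steps span the central 90% of all contigs of like level and dotted lines mark 2-fold. Outside the grey lie NCOA5 and NR2F6 in the first and second panels and NR2F6 alone in the third.

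No member was 2-fold from both libraries without fibres at either PET concentration (0 of 50 in each direction, beside 4.24% higher and 3.34% lower of all contigs in PET 10 and 4.35% and 3.15% in PET 100). The median log2 ratio of the members was -0.01 for the surfactant control against the control, 0.02 and 0.10 for PET 10 and PET 100 against the surfactant control, and 0.05 and 0.11 against the control, beside 0.00, 0.02, 0.10, 0.03 and 0.11 for all contigs.

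Without regard to size, 12 of the 31 member gene names with a summed mean of at least 1 FPKM had both PET values above both values without fibres (38.7%, beside 26.7% of 6478 gene names), and 4 had both below (12.9%, beside 11%). Among the 12 were HNF4A, NR5A2, RORB, NR4A2, HNF1BA, NCOA6, NCOR1, PPARGC1A, NRIP1, NRBP2 and NRIP3. The lower PET value exceeded the higher of the other pair by 1.32 times for HNF4A, by 1.16 for NR5A2 and by under 1.1 for the rest. These are sums. In their main contigs alone, RORB, NCOR1, PPARGC1A and NRIP3 did not have both PET values above both values without fibres. The 4 below were DIO2, RXRBA, NR1D2 and NR2F6. The higher PET value and the lower of the other pair were 2.34 and 2.54 FPKM for DIO2 and 25.62 and 25.67 for RXRBA. For NR1D2 they were 64.75 and 65.54, and for NR2F6 5.03 and 5.21. In the main contig of NR2F6, PET 100 (5.03) was above the surfactant control (4.68). This balance turned with scaling: once libraries were aligned by the median of ratios, 3 gene names were above (9.68%, beside 13.6% of all) and 6 below (19.4%, beside 25.4%). HNF4A and NR5A2 remained among the 3 above, with NR4A2, and DIO2, RXRBA, NR1D2 and NR2F6 among the 6 below.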

How the data were processed

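Expression in 4 libraries, 1 per group, was deposited as FPKM in 1 column per library, per the file headers. RSEM, Bowtie and bcl2fastq 2.20.0.422 were used, per the submitters' processing notes. The columns of the surfactant control and PET 100 carry abbreviated or misspelt names and were matched to the only label each could stand for. The assembler and the annotation method are not given in the sources used here. RSEM-type values divide fragments among similar contigs, so a 0 can be an estimate and is written as listed at 0. FPKM keeps no counts, so the counting error of a value is unknown.

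Values were used as deposited (Python 3.11.15, pandas 2.3.3, numpy 2.4.6). Log2 ratios used FPKM + 0.5, contigs averaging 1 FPKM or more entered, and 2-fold was the limit. No test was run. The calculation of ratios and counts was checked on simulated data, with known changes placed in more abundant contigs only. Its noise was equal at all levels, unlike that of low contigs here, so it does not bear on how often these pass 2-fold. Contigs of 1 gene name, any case, were summed; contig stems are names without the last number. The main contig is that with the highest mean, and values of a listed gene are those of its main contig unless a sum is named.

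Members and gene lists were chosen with earlier results of these data known. Lists, 8 of pathways and 6 of markers, were matched by symbol, also with a suffix a or b, so matched numbers are gene names found for the listed symbols, of which one can match a pair; 3 gene names of other proteins that this matched were left out. Named were all deiodinases, receptors with a summed mean of at least 3 FPKM, the 5 most abundant gene names of each other class, member contigs 2-fold from both libraries without fibres or, averaging 2 FPKM or more, 2-fold between the surfactant control and the control (0 contigs), and per list the 3 most abundant genes and the 3 with the largest ratio at 100 mg/L; others were named after their values were seen, and some that the rule names are not reported here. Alternatives were other pseudocounts, filters and folds, median-of-ratios scaling, sums per gene name, and receptors and deiodinases alone.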

Additional observations from a re-analysis of the deposited data

How the results depend on the processing

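With 1 library per group no replicate could be left out, and no paired analysis was possible because no group has a second library. A 2-fold count of members is small and moved with most settings, below as surfactant control against control, PET 10 and PET 100 against surfactant control, PET 10 and PET 100 against control, and PET 100 against PET 10. As reported it was 4, 4, 3, 1, 1 and 2 of 50 members. With no filter, which adds low contigs, it was 13, 13, 12, 9, 9 and 9 of 99. At a filter of 3 FPKM, which leaves 31 members, it was 0, 1, 1, 0, 0 and 0. At 1.5-fold it was 10, 9, 9, 5, 5 and 6 of 50. Summed per gene name (31 names) it was 1, 1, 0 and 0 in the first 4 and 1 in the last. With receptors and deiodinases alone (26 contigs) it was 2, 1, 0, 0 and 1, in all but PET 100 against surfactant control. A pseudocount of 0.1 gave 5, 2 and 3 in the third, the fourth and the fifth, a pseudocount of 1 gave 2 in the second and 0 in the fourth, and median-of-ratios scaling gave 0 in the fourth. Members 2-fold from both libraries without fibres were 0 as reported, but 2 in PET 10 and 3 in PET 100 with no filter, and 1 in PET 100 with a pseudocount of 0.1. Over the 8 pathway lists, 8 contigs were past 2-fold in PET 100 against the surfactant control, 41 with no filter and 4 at 3 FPKM. Scaling took the members' median log2 ratio in PET 100 from 0.10 to -0.0283 against the surfactant control and from 0.11 to -0.0295 against the control. Of the list medians, 13 of 26 moved with scaling, 9 with no filter, 3 when summed and 2 at 3 FPKM. No called ratio of a named gene reversed at its main contig. The calls of the minor NR5A2 contig did reverse when the contigs of the name were summed. For PET 100 against the surfactant control the log2 ratio went from -1.37 to 0.27, and against PET 10 from -1.48 to 0.06. The causes of the remaining shifts were not tested.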

Other observations

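Some nuclear receptors carry annotations outside the wording that chose the members. They were found, after the data were seen, by the table's Gene Ontology term for steroid hormone receptor activity. The estrogen-related receptor ESRRG, an orphan receptor of energy metabolism, summed to 10.64, 10.22, 11.46 and 12.45 FPKM in the sequence Control, Surfactant control, PET 10, PET 100, and ESRRB to 1.80, 1.75, 1.28 and 1.82. NR2E3, the receptor that specifies rod photoreceptors, was at 3.30, 2.87, 2.85 and 3.50. The contig named as the bile acid receptor NR1H4 was low in every library, at 0.28 to 0.33 FPKM.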
